A study of Mus musculus with 6 samples.

Results

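Mitochondrial beta oxidation was described through 10 genes of the carnitine shuttle and of the enzymes that shorten fatty acids: Cpt1a, Cpt2, Acadm, Acadl, Acadvl, Hadha, Hadhb, Acaa2, Etfdh and Eci1. They were taken by name from the 53800 genes of the deposited count table, each matched 1 row, and all 10 passed the filter on low counts. RNA sequencing had been done on NCTC 1469 cells, a wild-type line derived from mouse liver, after 6 days of simulated microgravity in a random positioning machine, whose continual turning averages out the direction of gravity, or after 6 days at normal gravity. Both groups grew in DMEM with 10% fetal bovine serum and antibiotics. Each group had 3 libraries of this 1 line, with 30474792 to 34318208 counts per library in simulated microgravity and 31406875 to 32797684 at normal gravity. The series title names melatonin, but no sample carries a melatonin label. The labels do not say that replicates were separate cultures, so p-values measure the spread between these libraries, which may be technical. Count columns marked R were read as the random positioning machine and those marked C as normal gravity, and every direction rests on that reading.

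Long-chain fatty acids enter mitochondria as carnitine esters. CPT1A on the outer membrane forms the ester and is held to be the rate-limiting step, a carrier coded by Slc25a20 moves it across the inner membrane, and CPT2 turns it back into an acyl-CoA. Each round of oxidation then runs through an acyl-CoA dehydrogenase, a hydratase, a second dehydrogenase and a thiolase, with electrons passed by ETFDH to ubiquinone. In liver the pathway feeds ketone body synthesis and is under the control of the nuclear receptor PPAR alpha.

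The cells carry the label hepatocytes, which their marker genes went against. Of 16 hepatocyte markers 13 had 0 counts in all 6 libraries, among them Alb, Hnf4a and Cps1. The summed level of the list was 25.6 to 32.9 CPM, the counts of a gene relative to the depth of its library, in simulated microgravity and 43.5 to 54.0 CPM at normal gravity, nearly all of it from Trf. Of 15 macrophage markers 14 averaged over 1 CPM, and their sum was 13020 to 14550 CPM in simulated microgravity and 8352 to 12620 CPM at normal gravity. Mrc1 was the marker under 1 CPM. Fibroblast markers summed to 77.3 to 79.9 CPM in simulated microgravity and 52.3 to 69.3 CPM at normal gravity, with Lum at 0. Most of that sum was Pdgfra, at 58.18 to 64.41 CPM in simulated microgravity and 34.15 to 55.95 CPM at normal gravity. Endothelial markers summed to 137.3 to 152.1 CPM in simulated microgravity and 105.2 to 118.1 CPM at normal gravity, with Tek, Tie1 and Stab2 at 0. Most of that sum was Eng, whose groups overlapped, and Vwf. Vwf had 42.07 to 55.67 CPM in simulated microgravity and 15.07 to 17.99 CPM at normal gravity. The part of these differences in the results below was not tested, and in bulk RNA fewer cells of a type cannot be told apart from less RNA per cell. Normal gravity replicate 1 stood apart from its group: its log2 CPM correlated over genes at 0.936 with replicates 2 and 3, which correlated at 0.985 with each other. Values without it are given for the members and named list genes whose call it changed, and counts of calls without it for each list. Other results may also have moved without it.

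The promoter stretches below belong to the member that rose (Cpt1a), to the member with the lowest p among those with lower levels (Acadl) and to a neighbouring pair with like fold changes (Hadha and Hadhb). They are RefSeq sequences of build GRCm38.p6, 5′ to 3′. Capitals mark matches, on either strand, to the nuclear receptor half-site AGGTCA, the GC box GGGCGG and the CCAAT box. The Cpt1a stretch is the 250 bases before its start on the plus strand, chr19:3323051-3323300. The Acadl stretch is the 250 bases before its start on the minus strand, chr1:66863310-66863559. The third, chr5:30155163-30155247 on the plus strand, is the 85 bases that lie between Hadha and Hadhb in the deposited table.
Cpt1a: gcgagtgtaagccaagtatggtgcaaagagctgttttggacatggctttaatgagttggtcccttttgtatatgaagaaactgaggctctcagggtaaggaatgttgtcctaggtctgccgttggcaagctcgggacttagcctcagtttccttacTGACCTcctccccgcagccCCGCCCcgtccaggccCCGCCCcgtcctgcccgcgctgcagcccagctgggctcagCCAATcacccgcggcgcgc
Acadl: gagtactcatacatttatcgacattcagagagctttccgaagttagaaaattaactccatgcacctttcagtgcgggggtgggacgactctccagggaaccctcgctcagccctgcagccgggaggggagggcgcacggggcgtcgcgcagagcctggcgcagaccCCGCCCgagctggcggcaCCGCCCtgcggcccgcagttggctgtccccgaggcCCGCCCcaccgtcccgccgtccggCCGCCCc
Hadha-Hadhb: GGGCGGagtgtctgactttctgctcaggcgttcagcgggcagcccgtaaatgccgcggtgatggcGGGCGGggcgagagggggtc

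Promoters of 9 of the 10 genes were matched. In the 250 bases before the start, AGGTCA was found in 3 of the 9 (Cpt1a, Acadm and Acadvl), against 14.0% of 32841 promoters. The Cpt1a match lay 94 to 89 bases before the start, on the other strand. GGGCGG was found in 6 of the 9, against 32.7% of all promoters, with 4 matches in Acadl. CCAAT was found in 2 (Cpt1a and Etfdh), against 33.9%. None of the 9 held the exact direct repeat AGGTCANAGGTCA (0.0335% of promoters), the estrogen-related receptor element TCAAGGTCA (0.387%) or the cAMP response element TGACGTCA (1.55%). The direct repeat and the estrogen-related receptor element contain AGGTCA. A match is a run of letters and not a site.

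Cpt1a rose in simulated microgravity. Its level, as CPM scaled by the TMM method, was 154.5, 147.0 and 160.9 in simulated microgravity, against 50.4, 69.1 and 69.5 at normal gravity. The lowest simulated microgravity library stood above the highest normal gravity library by more than the spread within either group. The means were 154.1 ± 6.98 CPM in simulated microgravity and 63.0 ± 10.9 CPM at normal gravity (SD, n = 3 each). This was a fold change of 2.45, or 1.29 on the log2 scale (SE 0.16, adjusted p = 0.0194 in edgeR's quasi-likelihood test with Benjamini-Hochberg adjustment over all genes). It was the 1 member of 10 past the threshold of 0.05, where 1.16% of 14509 tested genes were called higher (168 genes) and 0.365% lower (53 genes). Cpt1a lies on the plus strand of chromosome 19, from 3323301 to 3385732 in GRCm38, and no other gene of the table overlaps it.

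The macrophage marker sum was highest at normal gravity in replicate 1, at 12620 CPM against 8352 and 8490 CPM in replicates 2 and 3, where Cpt1a was lowest in replicate 1. Most of that gap was Lyz2, at 3928 CPM in replicate 1 against 969.1 and 1022 CPM in replicates 2 and 3. Adgre1, Cd68, Cd14, Marco, Msr1, Tyrobp, Fcer1g, Cybb, Spi1 and Laptm5 were also highest in replicate 1 among the normal gravity libraries. Csf1r, Itgam, Ptprc and Mrc1 were lowest in replicate 1 among them. The part of these markers in the Cpt1a difference was not tested.

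The size of the Cpt1a difference depended little on any 1 library, while its call was lost on leaving out any library but 1. Without normal gravity replicate 1, the lowest of the 6 and a library that stood apart from the others, the log2 fold change was 1.16 (SE 0.056, edgeR adjusted p = 0.000166). With any 1 of the other 5 libraries left out it was 1.26 to 1.37, and the edgeR adjusted p was 0.0845 to 0.166, above the threshold in all 5 cases. Few genes of any kind were called in those 5 comparisons: 0.0202%, 0.161% and 0.0808% without simulated microgravity replicate 1, 2 or 3, and 0.148% and 0.154% without normal gravity replicate 2 or 3.

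**Figure D1:**
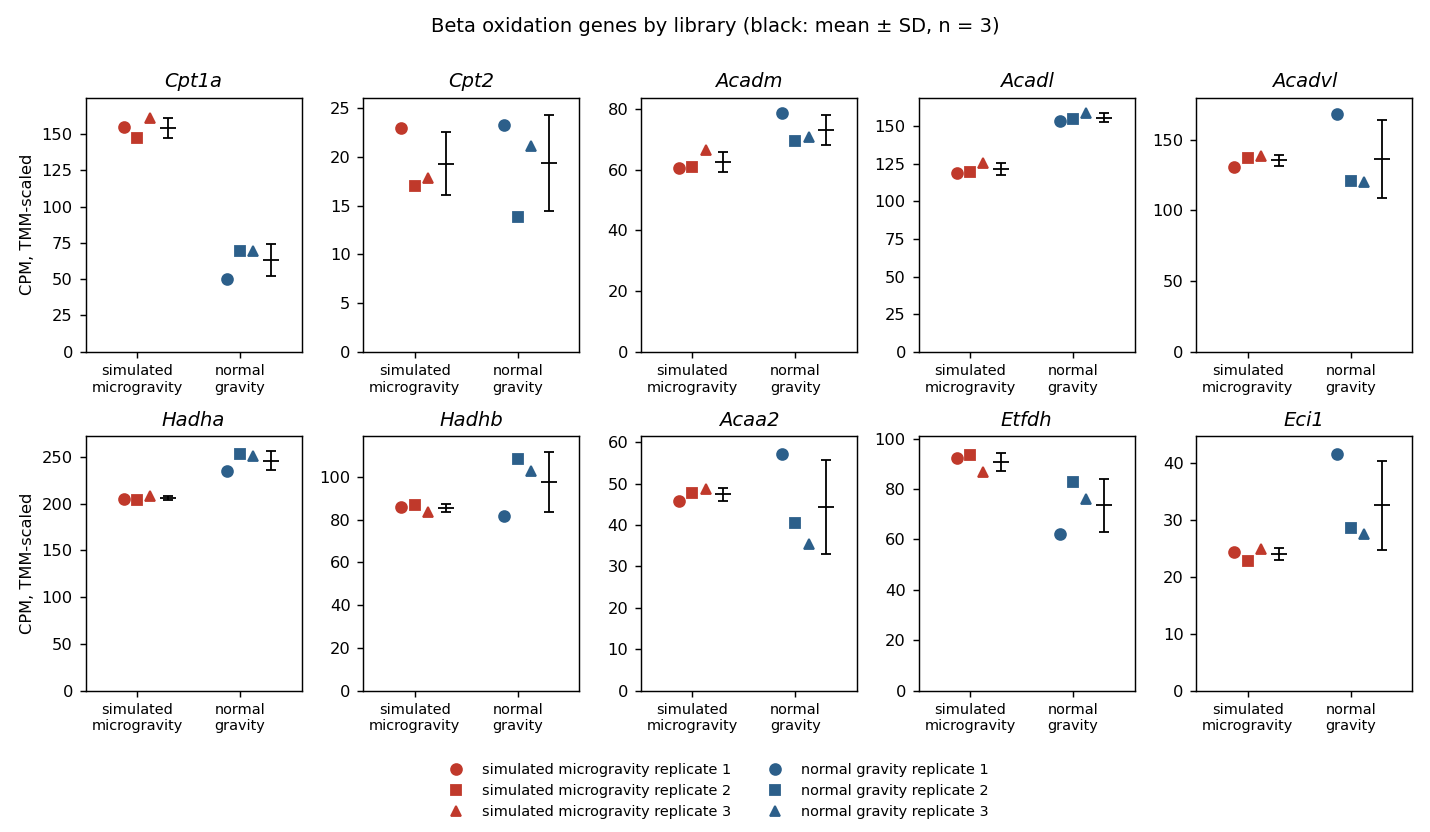
Level of each of the 10 genes in every library, as TMM-scaled CPM on an axis that starts at 0, with simulated microgravity left and normal gravity right and the mean ± SD of 3 libraries in black. Cpt1a was 147.0 to 160.9 CPM in simulated microgravity and 50.4 to 69.5 CPM at normal gravity, and in Cpt2, Acadvl, Hadhb and Acaa2 the groups overlap.

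Cpt1a made up nearly all counts of its isoenzymes. Cpt1b, the muscle form, had 3 to 31 counts per library in simulated microgravity and 4 to 41 at normal gravity. Cpt1c, the brain form, had 12 to 20 counts in simulated microgravity and 11 to 55 at normal gravity, and did not pass (log2 fold change -0.70, edgeR adjusted p = 0.680). The 55 counts were those of normal gravity replicate 1, and without it the log2 fold change of Cpt1c turned to 0.31 (edgeR adjusted p = 0.623). Cpt1a took 99.0% to 99.6% of the counts of the 3 genes in simulated microgravity and 96.5% to 99.1% at normal gravity. The exact 95% binomial intervals ran from 98.7% to 99.7% over the simulated microgravity libraries and from 95.5% to 99.5% over those at normal gravity, and they cover counting error only.

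The shuttle's other steps did not pass the test. Cpt2, the inner membrane enzyme, had 23.0, 17.1 and 17.9 CPM in simulated microgravity, against 23.3, 13.8 and 21.1 CPM at normal gravity. The groups overlapped fully, with a log2 fold change of -0.0062 (SE 0.23, edgeR adjusted p = 0.994). Within a library, where no scaling is needed, the log2 ratio of Cpt1a to Cpt2 counts was 3.01 ± 0.23 in simulated microgravity and 1.72 ± 0.60 at normal gravity (SD, n = 3 each). The difference of 1.29 had an exact two-sided permutation p of 0.1, the smallest that 3 against 3 allows, and it was 0.989 without normal gravity replicate 1. The carrier gene Slc25a20 had 38.5 ± 3.02 CPM in simulated microgravity and 31.2 ± 5.80 CPM at normal gravity, with overlapping groups (log2 fold change 0.30, SE 0.16, edgeR adjusted p = 0.437). It was called higher without normal gravity replicate 1, at 0.47 (edgeR adjusted p = 0.0108).

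Acadl, Acadm and Acadvl code for acyl-CoA dehydrogenases, which take the first electrons from fatty acids of long and medium chain, and none of the 3 passed with all libraries. Acadl, the long-chain enzyme, had 119.1, 119.6 and 125.8 CPM in simulated microgravity, against 153.5, 154.6 and 158.8 CPM at normal gravity. All 3 simulated microgravity libraries lay below all 3 at normal gravity, and normal gravity replicate 1 lay with its group. The log2 fold change was -0.36 (SE 0.093, unadjusted p = 0.00764 and adjusted p = 0.133 in edgeR). Acadl was called lower by DESeq2 (-0.36, adjusted p = 0.00284) and in edgeR without normal gravity replicate 1 (-0.36, adjusted p = 0.00318). DESeq2 called 4.92% of all tested genes higher and 3.56% lower. A processed pseudogene, Gm15793, lies within Acadl on the same strand with 25 to 50 counts in simulated microgravity and 52 to 66 at normal gravity.

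Acadm, the medium-chain enzyme, had 60.6 to 66.6 CPM in simulated microgravity and 69.7 to 78.8 CPM at normal gravity. The groups did not overlap, but the log2 fold change of -0.22 (SE 0.11) did not pass (edgeR adjusted p = 0.410, and 0.103 without normal gravity replicate 1). Acadvl, the very-long-chain enzyme, had 130.8 to 138.3 CPM in simulated microgravity, against 168.2, 121.0 and 119.8 CPM at normal gravity. Replicate 1 was the highest of the 6 libraries and the other normal gravity libraries were the lowest, so the log2 fold change of -0.01 (edgeR adjusted p = 0.988) turned to 0.17 without replicate 1 (edgeR adjusted p = 0.0377). Acadvl shares its 3′ part with Dvl2 on the other strand, from 70010183 to 70012301 on chromosome 11. Since the strand setting of the counting is not given in the sources used here, reads there cannot be told apart.

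Hadha and Hadhb code for the alpha and beta subunits of the trifunctional protein, which carries the hydratase, the second dehydrogenase and the thiolase for long chains. They are divergent neighbours on chromosome 5: Hadha runs from 30118304 to 30155162 on the minus strand and Hadhb from 30155248 to 30184593 on the plus strand. Hadha had 205.0, 204.4 and 208.2 CPM in simulated microgravity, against 234.6, 253.2 and 251.0 CPM at normal gravity. The groups did not overlap (log2 fold change -0.26, SE 0.092, edgeR adjusted p = 0.243). Hadhb had 86.0, 87.0 and 83.5 CPM in simulated microgravity, against 81.6, 108.4 and 103.0 CPM at normal gravity. Normal gravity replicate 1 lay below all simulated microgravity libraries and the other 2 lay above them, and the log2 fold change was -0.19 (SE 0.14, edgeR adjusted p = 0.574).

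Without that library both subunits were called lower and by nearly the same amount, Hadha at -0.29 (SE 0.036, edgeR adjusted p = 0.00296) and Hadhb at -0.30 (SE 0.052, edgeR adjusted p = 0.00831). The log2 ratio of Hadha to Hadhb counts was 1.27 ± 0.045 in simulated microgravity and 1.34 ± 0.16 at normal gravity (SD, n = 3 each), a difference of -0.077 with p = 0.7 (two-sided exact permutation). Between simulated microgravity and normal gravity replicates 2 and 3 that difference was 0.0125.

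Of the last 3 members, Acaa2 and Eci1 were high in normal gravity replicate 1 and Etfdh was low there. Acaa2, a mitochondrial thiolase, had 45.7 to 48.7 CPM in simulated microgravity, against 57.3, 40.5 and 35.4 CPM at normal gravity (log2 fold change 0.095, SE 0.19, edgeR adjusted p = 0.865). Without normal gravity replicate 1 it was called higher, at 0.32 (edgeR adjusted p = 0.0254). Eci1, the isomerase that prepares unsaturated chains for oxidation, had 22.8 to 24.9 CPM in simulated microgravity, against 41.6, 28.5 and 27.6 CPM at normal gravity (log2 fold change -0.44, SE 0.18, edgeR adjusted p = 0.317). Its groups did not overlap, with or without replicate 1, and the fold change without it was -0.22 (edgeR adjusted p = 0.0724).

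Etfdh, the oxidoreductase that hands the electrons of the dehydrogenases to ubiquinone, had 92.3, 93.4 and 86.7 CPM in simulated microgravity, against 62.1, 82.7 and 75.8 CPM at normal gravity. All simulated microgravity libraries were above all those at normal gravity (log2 fold change 0.30, SE 0.14, edgeR adjusted p = 0.354, and 0.20 with adjusted p = 0.0653 without replicate 1). The first bases of Etfdh overlap 4930579G24Rik on the other strand, which had 1108 to 1252 counts in simulated microgravity and 1214 to 1513 at normal gravity.

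**Figure D2:**
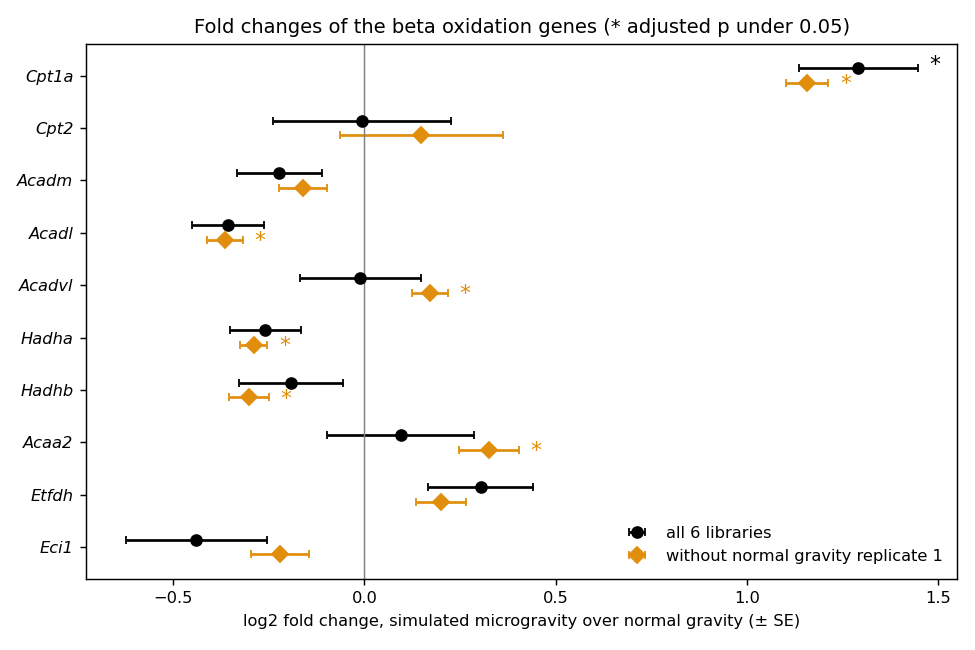
Log2 fold change of each of the 10 genes, simulated microgravity over normal gravity, with bars of 1 SE, from all 6 libraries (black circles) and without normal gravity replicate 1 (orange diamonds), where stars mark an adjusted p under 0.05. Cpt1a stands at 1.29 and 1.16, and the other 9 genes lie between -0.44 and 0.32 in both fits.

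Counted together, 1 of the 10 members rose and 9 did not pass with all libraries. At an unadjusted p under 0.05 there were 3 members, against 16.0% of all tested genes. Median log2 fold changes were -0.10 over the members and -0.19 over the 9 without Cpt1a, against -0.021 over all 14509 tested genes. The groups did not overlap for 2 members that were higher (Cpt1a and Etfdh) and 4 that were lower (Acadl, Acadm, Hadha and Eci1), where 14.4% and 12.9% of all tested genes did so. Without normal gravity replicate 1, 3 members were called higher (Cpt1a, Acadvl and Acaa2) and 3 lower (Acadl, Hadha and Hadhb). In that comparison 15.7% of 14809 tested genes were called higher and 15.1% lower. With the length trend described below removed as well, 6 members were called, where 30.6% of all tested genes were. Cpt1a was the higher one, and Acadl, Acadm, Hadha, Hadhb and Eci1 were lower. The higher calls of Acadvl (0.11, edgeR adjusted p = 0.1) and Acaa2 (0.24, edgeR adjusted p = 0.052) were lost there.

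Within each library, Cpt1a was set against the other members. The log2 ratio of its counts to the geometric mean of the other 9 members was 1.15, 1.11 and 1.21 in simulated microgravity, against -0.67, -0.045 and -0.058 at normal gravity. The difference of 1.41, a 2.66-fold change of the ratio, had the smallest exact two-sided permutation p that 3 against 3 allows, 0.1, and it was 1.21 without normal gravity replicate 1. Summed over the 9 genes without Cpt1a, the level in TPM (counts per gene length, scaled to the same total in every library) was 614.1, 617.0 and 609.6 in simulated microgravity, against 623.0, 723.7 and 717.2 at normal gravity. The simulated microgravity sums were all lower, with a difference of the means of -10.8% (exact permutation, p = 0.1). It was -74.4 TPM with all libraries and -106.9 TPM without replicate 1. With Cpt1a included the sums overlapped, at 681.2 to 685.4 TPM in simulated microgravity and 642.5 to 757.9 TPM at normal gravity, with p = 0.4 by exact permutation.

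Per length, the member whose place in the order differed most between the groups was Cpt1a. It ranked the fourth of the 10 genes in all 3 simulated microgravity libraries, at 70.3 ± 2.06 TPM, and the ninth in all 3 normal gravity libraries, at 29.4 ± 8.61 TPM (SD, n = 3 each). It held 10.3% ± 0.32 of the members' summed TPM in simulated microgravity and 4.04% ± 0.88 at normal gravity. By group mean, Eci1 had rank 8 in simulated microgravity (43.14 ± 1.488 TPM) and rank 5 at normal gravity (57.65 ± 4.935 TPM). Acadl was the most abundant gene in both groups, at 124.3 ± 1.25 TPM in simulated microgravity and 160.6 ± 24.1 TPM at normal gravity. Cpt2 was the lowest in both, at 16.0 ± 2.81 TPM in simulated microgravity and 15.9 ± 3.26 TPM at normal gravity.

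Some neighbours in this order differed by no more than the sum of their SDs. In simulated microgravity these were Acadl and Acadvl, and Acaa2 and Acadm. At normal gravity they were Acadvl and Hadha, and each neighbouring pair in the run of Eci1, Acaa2, Hadhb, Etfdh and Cpt1a. The subunit genes Hadha and Hadhb stood at 100.5 ± 1.12 and 38.2 ± 1.58 TPM in simulated microgravity and at 121.5 ± 21.4 and 44.5 ± 11.9 TPM at normal gravity. These levels rest on the gene lengths of the deposited table, 4017 bases for Hadha and 4388 for Hadhb.

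**Figure D3:**
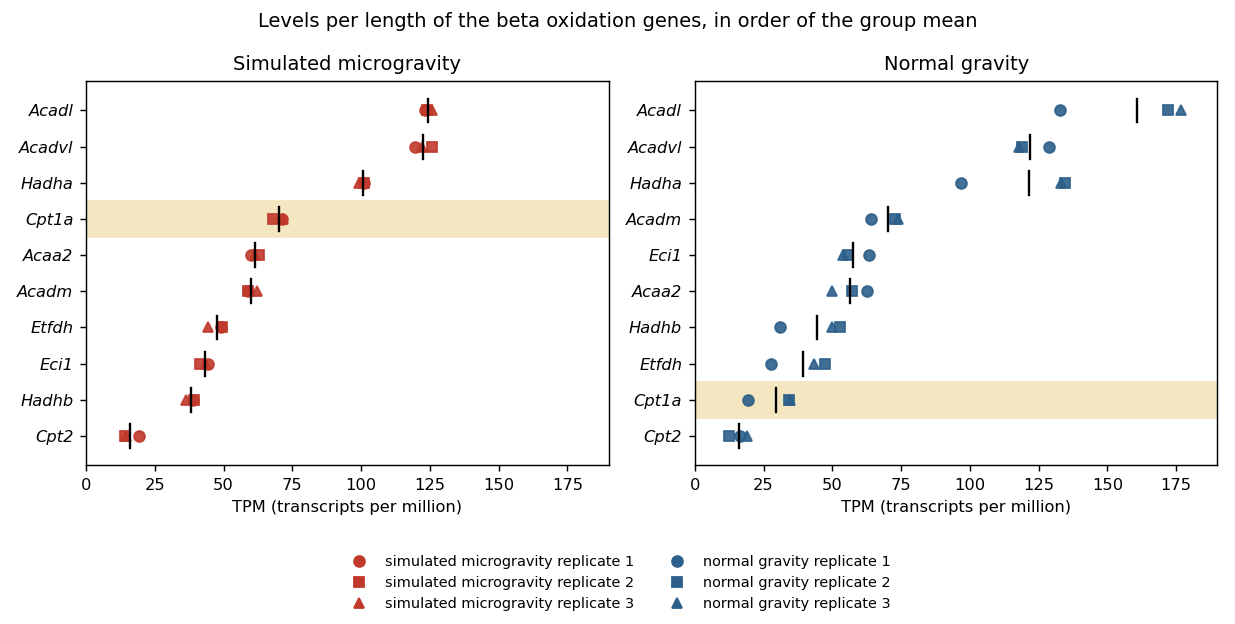
Level per length (TPM) of the 10 genes in the 3 libraries of simulated microgravity (left) and of normal gravity (right), each sorted by its group mean, which is the black tick, with the Cpt1a row shaded. Cpt1a is the fourth from the top at 70.3 TPM in simulated microgravity and the ninth at 29.4 TPM at normal gravity.

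Normal gravity replicate 1 differed from replicates 2 and 3 by gene length, and the members followed that trend. Over all tested genes of up to 1000 bases its median log2 difference from the mean of the other 2 was 0.63, and over genes above 5000 bases it was -0.70. The 4 members of 3740 to 4388 bases were lower in it, with differences of -0.10 for Hadha, -0.35 for Etfdh, -0.37 for Hadhb and -0.46 for Cpt1a. Of the 6 members of 1091 to 2372 bases, 5 were higher, from 0.17 for Acadm to 0.60 for Acaa2, and Acadl differed by -0.029. With the length trend removed from every library, Cpt1a kept a log2 fold change of 1.23 and its call, and Hadha was called lower at -0.31 (edgeR adjusted p = 0.0491). In that fit 3.03% of all tested genes were called higher and 1.77% lower.

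**Figure D4:**
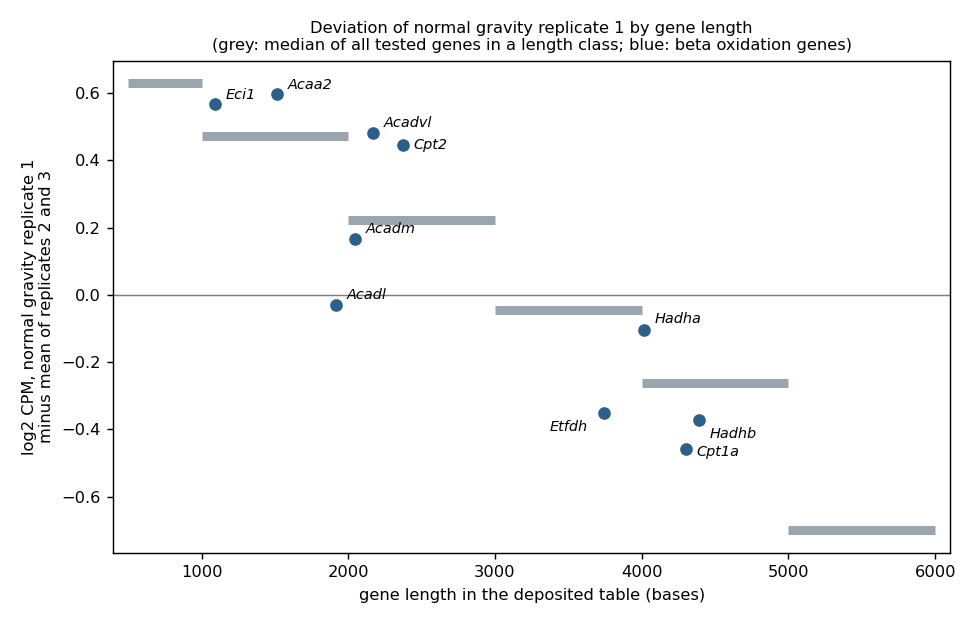
Log2 CPM of normal gravity replicate 1 minus the mean of replicates 2 and 3, against gene length in bases. Blue points are the 10 genes and grey bars are medians of all tested genes per length class, with the shortest class drawn from 500 bases and the longest to 6000. The members run from 0.60 (Acaa2) to -0.46 (Cpt1a), and Acadl lies near 0.

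Beyond the members, 80 further genes of fatty acid oxidation and its control were examined in 7 lists, and 70 were tested. With all libraries 3 rose and 1 fell, where 1.16% of all tested genes were called higher and 0.365% lower. Acox3, a peroxisomal oxidase of branched-chain acyl-CoAs, had 75.2, 69.8 and 86.1 CPM in simulated microgravity, against 33.6, 31.5 and 28.3 CPM at normal gravity. All 3 simulated microgravity libraries were far above the highest at normal gravity (log2 fold change 1.31, SE 0.13, edgeR adjusted p = 0.0131). The other 13 tested peroxisomal genes did not pass, and the median of that list was -0.0096. Without normal gravity replicate 1, 5 of the 14 tested peroxisomal genes were called higher and 1 lower, and the median was 0.17. The shares over all tested genes were then 15.7% higher and 15.1% lower.

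Acat1, a mitochondrial acetoacetyl-CoA thiolase that acts in both ketone body synthesis and use, had 134.2, 126.3 and 125.6 CPM in simulated microgravity, against 200.7, 201.5 and 195.7 CPM at normal gravity. Its groups were far apart and it fell by 0.63 on the log2 scale (SE 0.093, edgeR adjusted p = 0.0357). It was the 1 of 13 tested genes among the other mitochondrial oxidation enzymes to pass, with a list median of -0.15. The median was 0.019 without normal gravity replicate 1. Acad11 and Acad12 stood at 0.54 and 1.02, and their groups did not overlap (edgeR adjusted p = 0.08705 and 0.127). DESeq2 called both higher (adjusted p = 0.00431 and 0.0155), as did edgeR without replicate 1 (adjusted p = 0.00736 and 0.0363). With the length trend removed edgeR called Acad11 (adjusted p = 0.0415) and not Acad12. Among 4 tested ketone body genes Oxct1, which activates ketone bodies for use and was named after its values were seen, had 322.2 ± 17.9 CPM in simulated microgravity and 571.7 ± 123.5 CPM at normal gravity (SD, n = 3 each). Its groups did not overlap, but it did not pass (log2 fold change -0.83, SE 0.17, edgeR adjusted p = 0.0784). Oxct1 was called lower in edgeR without normal gravity replicate 1 (-0.87, adjusted p = 0.0111), in edgeR with the length trend removed (-0.87, adjusted p = 0.0338) and by DESeq2 (-0.83, adjusted p = 0.00131). Bdh1, which interconverts the main ketone bodies, and Decr1, a reductase for unsaturated chains, had 0 counts in all 6 libraries. Without normal gravity replicate 1, edgeR called 4 of the 13 other mitochondrial oxidation enzymes higher and 3 lower. Of the 4 ketone body genes it called 1 higher and 2 lower. The shares over all tested genes were 15.7% higher and 15.1% lower.

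Among 12 tested regulators 1 rose with all libraries. Without normal gravity replicate 1, 3 were called higher (Rxra, Pparg and Ppargc1a) and 0 lower. Over all tested genes 15.7% were then called higher and 15.1% lower. Rxra, the retinoid receptor that pairs with the PPARs on DNA, had 139.3, 125.8 and 145.7 CPM in simulated microgravity, against 83.8, 87.7 and 81.0 CPM at normal gravity (log2 fold change 0.70, SE 0.11, edgeR adjusted p = 0.0413). Its groups were well apart, but with the length trend removed the edgeR adjusted p was 0.0537. Ppara, the receptor of the liver pathway, was not detected, with 0 of 194666094 counts. The upper limit from counting error alone was 0.0154 CPM (3 counts). A row of 0 counts here may also come from the counting, whose tool is not named in the sources used here. Ppard had 45.1 ± 3.91 CPM in simulated microgravity and 38.1 ± 2.08 CPM at normal gravity (SD, n = 3 each; log2 fold change 0.24, edgeR adjusted p = 0.382). Pparg had 3.36, 4.10 and 5.76 CPM in simulated microgravity, against 5.05, 1.22 and 0.68 CPM at normal gravity (edgeR adjusted p = 0.607). Its log2 fold change of 0.93 became 2.21 without replicate 1 (edgeR adjusted p = 0.00703). Ppargc1a, a coactivator of oxidative genes, had 43.2, 43.5 and 41.8 CPM in simulated microgravity, against 13.0, 36.0 and 32.3 CPM at normal gravity. Its groups did not overlap and it did not pass (log2 fold change 0.66, edgeR adjusted p = 0.444, and 0.33 with adjusted p = 0.0182 without replicate 1).

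Of 8 tested PPAR targets outside the members, 1 rose with all libraries. Without normal gravity replicate 1, 3 were called higher (Cd36, Plin2 and Hilpda) and 0 lower. Over all tested genes 15.7% were then called higher and 15.1% lower. The list median was 0.14 with all libraries and 0.57 without replicate 1. Hilpda, whose groups overlapped, went from a log2 fold change of 0.95 (edgeR adjusted p = 0.3535) to 1.63 (edgeR adjusted p = 0.000705). Cd36, the fatty acid receptor and transporter, had 611.7, 555.6 and 670.6 CPM in simulated microgravity, against 289.7, 344.1 and 345.7 CPM at normal gravity (log2 fold change 0.91, SE 0.13, edgeR adjusted p = 0.0308). Plin2 had 246.7 ± 18.45 CPM in simulated microgravity and 139.9 ± 38.45 CPM at normal gravity (SD, n = 3 each). Its groups did not overlap, but it did not pass (log2 fold change 0.82, edgeR adjusted p = 0.118). DESeq2 called it higher (adjusted p = 0.00692), as did edgeR with the length trend removed (adjusted p = 0.0108). Without replicate 1 it was called higher at 1.07 (edgeR adjusted p = 0.000444). Pdk4 and Vnn1, which are targets of PPAR alpha in liver, had 0 counts in every library. Genes that set the malonyl-CoA brake on CPT1A or sense energy did not pass: edgeR and DESeq2 each called 0 of 10. Of these, 1 had an unadjusted p under 0.05 in edgeR, where 16.0% of all tested genes did. Over all tested genes, 15.7% were called higher and 15.1% lower without normal gravity replicate 1. In that fit 3 of the 10 were called higher and 1 lower. The lower one was Prkaa2, a catalytic subunit gene of AMP-activated kinase, at -0.74 (edgeR adjusted p = 0.00134), against -0.43 with all libraries. The higher ones were Prkag1, a regulatory subunit gene, at 0.39 (edgeR adjusted p = 0.0113), Mlycd, whose product breaks down malonyl-CoA, at 0.57 (edgeR adjusted p = 0.0368), and Prkab2. Acaca, which makes malonyl-CoA in the cytosol, had 27.0, 27.9 and 16.4 CPM in simulated microgravity, against 20.0, 34.8 and 45.4 CPM at normal gravity (log2 fold change -0.49, SE 0.34, edgeR adjusted p = 0.562, and -0.75 with adjusted p = 0.0631 without replicate 1). Acacb, whose product does so at the mitochondrial surface, had 3.52 ± 0.55 CPM in simulated microgravity and 4.43 ± 0.47 CPM at normal gravity (SD, n = 3 each; log2 fold change -0.33, edgeR adjusted p = 0.509).

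The lowest p of that list was for Prkab2, a subunit of AMP-activated kinase, at 19.7 ± 0.53 CPM in simulated microgravity and 14.0 ± 2.88 CPM at normal gravity (log2 fold change 0.49, edgeR adjusted p = 0.244, and 0.35 with adjusted p = 0.0485 without replicate 1). The next was for the catalytic subunit gene Prkaa1, at 0.34 (edgeR adjusted p = 0.477, and 0.16 with adjusted p = 0.122 without replicate 1). In the shuttle and synthetase list, edgeR and DESeq2 each called 0 of 10 tested genes. Of these, 0 had an unadjusted p under 0.05 in edgeR, where 16.0% of all tested genes did. Without normal gravity replicate 1, edgeR called 3 of 11 tested genes of that list higher and 0 lower. Over all tested genes 15.7% were then called higher and 15.1% lower. Crat, which joins acetyl groups to carnitine, had the lowest p there, at 50.2 ± 3.08 CPM in simulated microgravity and 42.6 ± 4.45 CPM at normal gravity (log2 fold change 0.24, edgeR adjusted p = 0.431, and 0.32 with adjusted p = 0.0274 without replicate 1).

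The 4 calls of these lists were lost in the same way as that of Cpt1a. Without normal gravity replicate 1, Acox3, Acat1, Rxra and Cd36 were called in the same directions at 1.37, -0.62, 0.70 and 0.83. With any 1 of the other 5 libraries left out none of the 4 passed, with edgeR adjusted p-values of 0.0687 to 0.108 for Acox3, 0.154 to 0.273 for Acat1, 0.153 to 0.267 for Rxra and 0.115 to 0.207 for Cd36. With no filter on low counts, where 0.527% of all genes were called, Acox3 alone of the 4 passed. Without replicate 1, 22 of 71 tested genes of the 7 lists were called higher and 6 lower, where 15.7% of all tested genes were higher and 15.1% lower.

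**Figure D5:**
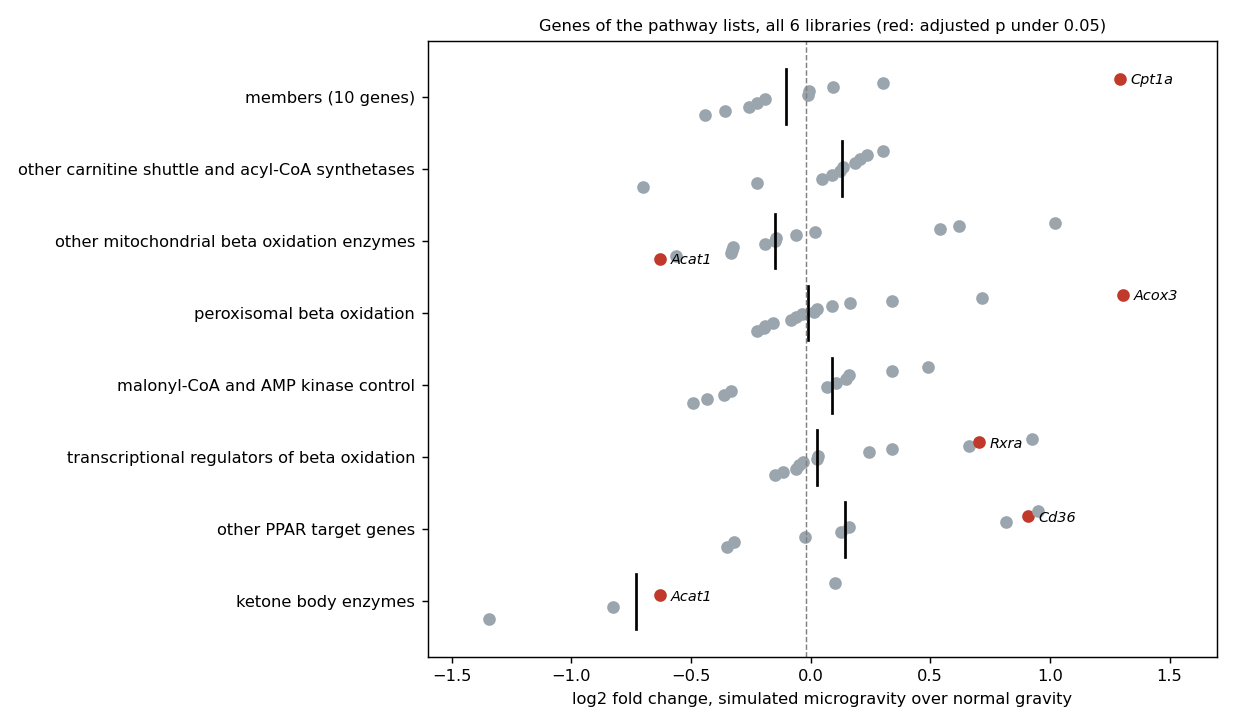
Log2 fold change, simulated microgravity over normal gravity, of each tested gene of the members and the 7 further lists with all 6 libraries. Red points passed an adjusted p of 0.05, black bars are list medians, the dashed line is the median of all tested genes (-0.021), and Acat1 appears in both lists that hold it. Cpt1a and Acox3 stand at 1.29 and 1.31, Rxra and Cd36 at 0.70 and 0.91, and Acat1 at -0.63.

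Among the 5 genes whose log2 CPM ran most like that of Cpt1a over the 6 libraries, among 9532 protein-coding genes with a mean of at least 5 CPM, were Ceacam1, Wdr81, Diaph1 and B4galt5, with Pearson's r of 0.998 to 0.999. Such values rest on 6 libraries in 2 groups, and 59 of the 9532 genes had an r over 0.99. Ceacam1 was the 1 of the 5 past the threshold, at 107.8, 103.9 and 109.9 CPM in simulated microgravity and 27.2, 38.6 and 40.7 CPM at normal gravity (log2 fold change 1.59, SE 0.18, edgeR adjusted p = 0.0155). Like Cpt1a, it was lowest in normal gravity replicate 1, but it was chosen by its r with Cpt1a over these same libraries. Among the members, Etfdh ran with Cpt1a at r = 0.88, and Acadl, Acadm, Hadha and Eci1 ran against it at -0.94, -0.90, -0.88 and -0.86. These are the members besides Cpt1a whose groups did not overlap, so their r largely restates the group difference. For Acaa2, Cpt2, Acadvl and Hadhb, r was 0.072, -0.091, -0.20 and -0.39.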

How the data were processed

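The authors deposited 1 table of read counts, whole numbers per gene with no normalization that the values show, beside gene coordinates and lengths. Reads had passed through fastp 2.0 and HISAT2 2.1.0, according to the submitters' processing notes. The sources used here name no counting tool, strand setting, build or annotation. Start and end of 97.1% of 53705 shared genes, and of 7 of the 10 members, were equal to GENCODE M21 (GRCm38). Of 53801 lines, 1 held no gene.

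In R 4.3.3, edgeR 4.0.16 gave the main results: filterByExpr (14509 genes), TMM scaling and the two-sided quasi-likelihood test, adjusted over all genes. Each SE was the log2 fold change over the square root of F. TPM used the table's gene lengths, and marker sums used CPM of all counts. The length trend was a lowess of log2 CPM on log2 length per library, entered as an offset. DESeq2 1.42.0 and limma-voom 3.58.1 were alternatives. The procedure was tested on simulated data. Same-numbered libraries did not deviate together (r = -0.073, 0.025 and -0.09 over genes), and numbers were not taken as pairs. That check cannot exclude that same-numbered libraries shared a culture or batch.

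The members and lists were chosen with earlier results of these data known. Named were all members, the genes of each list past the threshold or else its 2 with the lowest p, 10 regulators and shuttle genes always shown, and the 5 genes most like Cpt1a, of which 1 is not reported here. Bdh1, Decr1, Vnn1, Oxct1, Prkaa2, Prkag1, Mlycd, Plin2, Hilpda, Acad11 and Acad12 were named after their values were seen.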

Additional observations from a re-analysis of the deposited data

How the results depend on the processing

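With 3 libraries a group, calls moved with the libraries and the test more than the values did. Among all tested genes 221 were called, against 125 with no filter on low counts, 1230 with DESeq2's Wald test and 696 with the gene length trend removed. The count was 3 to 4559 with 1 library left out, the highest without normal gravity replicate 1, and 4527 without that library and the length trend. The members called, 1 with all libraries, were 2 with DESeq2, 2 with the length trend removed, 0 to 6 with 1 library left out and 6 without normal gravity replicate 1 and the trend. The 4 calls of the other lists became 1 with no filter, 10 with DESeq2, 0 to 28 with 1 library left out and 26 without that library and the trend. The cause of these shifts was not tested. With the replicate number as a block, edgeR called 0 genes among all tested genes (1534 at an unadjusted p under 0.05), 0 members (2 unadjusted) and 0 genes of the other lists (10 unadjusted), and Cpt1a stood at 1.31 (adjusted p = 0.163). Whether the numbers pair the samples is not given by the labels and was not settled by the deviations of same-numbered libraries.

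The log2 fold change of Cpt1a was 1.16 to 1.37 with 1 library left out. Members near 0 changed sign without passing, apart from Acadvl without normal gravity replicate 1. Cpt2 was 0.0209 in limma-voom, 0.0147 with the replicate block, 0.0253 with the trend removed, 0.0921 without the trend and replicate 1, and -0.20 to 0.15 with 1 library left out. Acadvl was 0.0081, 0.0084, 0.0391 and 0.11 in the same settings and -0.097 to 0.17 with 1 library left out. Acaa2 ran from -0.046 to 0.32. The log2 ratio of Hadha to Hadhb differed by -0.14 to 0.0125 with 1 library left out. The difference in the summed level of the 10 members was -33.5 TPM, -71.0 to -13.2 TPM with 1 library left out, and 4.76 CPM when TMM-scaled CPM was summed (exact permutation test, p = 0.6).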
